A study of Homo sapiens with 6 samples.

Results

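DHRS2 and TCN2 are 2 of the 36601 genes counted in single cells of SK-N-BE(2)-C, a cell line from a human neuroblastoma. They were chosen by their values in these files, as genes that were high in cells treated with TSA and low in the other cells. Their TSA levels against DMSO and against E6R are therefore a description here, with no test. Each was found once, by symbol, in the gene tables: DHRS2 as ENSG00000100867 and TCN2 as ENSG00000185339.

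The cells had been treated with DMSO (the solvent, as control), with TSA (commonly short for trichostatin A, which blocks the catalytic site of histone deacetylases) or with E6R, and each treatment had 2 libraries. The series describes a compound that inhibits the histone deacetylase complex without acting on the enzyme, and asks how it compares with TSA. Sources used here state no structure for E6R and no dose or duration for either compound. Libraries were made with Seq-Well S3, in which single cells share small wells with barcoded beads and each captured RNA molecule is counted once by its unique molecular identifier (UMI).

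DHRS2 encodes a short-chain dehydrogenase/reductase, an enzyme family that uses NAD(P)H to reduce or oxidise carbonyl and alcohol groups, and it is known as a gene that responds to histone deacetylase inhibitors. TCN2 encodes transcobalamin, a secreted protein that binds vitamin B12 (cobalamin) and delivers it to cells through the receptor CD320. Neither gene is a textbook marker of the neuroblast lineage.

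DHRS2 lies on the forward strand of chromosome 14 (GRCh38, GENCODE 29, chr14:23630115-23645639), has 10 annotated transcripts and overlaps no other gene. TCN2 lies on the forward strand of chromosome 22 (chr22:30606838-30627278), has 7 transcripts, and its first 246 bases overlap PES1, which runs on the opposite strand and is needed for ribosome assembly. Of the 3213 distinct stretches of 50 bases in TCN2 transcripts, 197 (6.13%) also lie in PES1 transcripts on the opposite strand, so reads there could be split wrongly by counting without strand. Of the 7876 stretches of DHRS2, 9 (0.114%) also lie in transcripts of other genes, none of them its close relative DHRS4.

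The 250 bases before the RefSeq start of DHRS2 (GRCh38.p14, chr14:23629865-23630114, forward strand) are shown because this window of the gene with the higher TSA level has a TATAAA match and no CpG; the RefSeq table used here matched 1 of the 2 genes. Capitals mark the one match to TATAAA on either strand.

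DHRS2 promoter: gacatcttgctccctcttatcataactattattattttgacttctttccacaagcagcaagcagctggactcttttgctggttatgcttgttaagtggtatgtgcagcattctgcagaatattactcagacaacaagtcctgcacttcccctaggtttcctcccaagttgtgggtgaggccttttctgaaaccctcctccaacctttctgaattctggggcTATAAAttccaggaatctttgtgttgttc

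The TATAAA match begins 29 bases before the start, and 10.7% of 35116 RefSeq promoter windows of the same length hold these letters on either strand. The window holds no CpG, against a median of 11 over all windows, and 6.06% of windows have none. Its GC content was 43.2%, against a median of 58%. The letters CCAAT, present in 32.0% of windows, and GGGCGG, present in 42.6%, were not in it. These are matches of letters only.

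Barcodes with 500 or more genes and at most 20% of UMIs from mitochondrial (MT) genes were kept as cells, which gave 17589 cells: 1861 and 3132 with DMSO, 2467 and 3292 with TSA, and 2891 and 3946 with E6R (replicates 1 and 2). Libraries held 4206366 to 26180262 UMIs in cells, with medians of 1053.5 to 1880 UMIs per cell, so shares of cells were compared after drawing 1000 UMIs at random from each cell, which left out 5652 shallower cells. The 9 neuroblastoma markers, MYCN included, were above 0 in all 6 libraries. The leukocyte gene PTPRC, the epithelial gene EPCAM and the erythroid gene HBB stayed at or below 2.50 UMIs per 1000000 in every library. The fibroblast gene COL1A1 was at 5.88 to 40.6 (39.6 and 33.3 with TSA) and COL1A2 at 0.115 to 5.84, without a common order by treatment, and their part in the results was not tested. The endothelial gene PECAM1 differed by replicate, with 24.2, 3.15 and 27.8 UMIs per 1000000 in replicate 1 of DMSO, TSA and E6R against 1.25, 1.58 and 0.382 in replicate 2. Any pair of libraries shared 11 to 58 cell barcodes, at most 2.11% of the smaller library.

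Summed over the cells of a library, DHRS2 was at 19.5 and 7.27 CPM (counts per 1000000, scaled by TMM) with DMSO, 655 and 539 with TSA, and 12.6 and 6.51 with E6R. Both TSA libraries lay far above the other 4, which overlapped each other. These levels rested on 92 and 38 UMIs with DMSO, 8624 and 6190 with TSA, and 200 and 173 with E6R. TCN2 was at 0.637 and 1.91 CPM with DMSO, 98.7 and 95.9 with TSA, and 0.948 and 1.43 with E6R. Here too only the TSA libraries were high, and DMSO and E6R overlapped. Only 3 and 10 TCN2 UMIs were counted with DMSO, against 1299 and 1101 with TSA.

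Per UMI sequenced, DHRS2 was 37.2 times as abundant with TSA as with DMSO (95% counting interval 31.3 to 44.5). The library fit, which is scaled by TMM, gave a log2 fold change of 5.48, and 5.17 with total counts as the only scaling. For TCN2 the ratio was 60.2 (35.1 to 113) and the log2 fold change 6.22, or 5.91 with total counts only. TMM thus made both differences larger than the ratios per UMI. The wider interval of TCN2 follows the small DMSO count. By level in TSA cells the genes stood far apart, DHRS2 at rank 209 and TCN2 at rank 2210 of 16763 genes (UMIs of 3′ tags, not scaled by length). A library sum does not tell more expressing cells from more RNA in each of them.

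With each cell at 1000 UMIs, DHRS2 was detected in 33.7% of TSA cells of replicate 1 (625 of 1852, exact 95% interval 31.6 to 36.0) and 29.04% of replicate 2 (810 of 2789, 27.4 to 30.8). The DMSO libraries had 1.77% (21 of 1187 cells) and 0.951% (16 of 1682), and the E6R libraries 1.05% (23 of 2199) and 0.673% (15 of 2228). The TSA mean was 31.4% ± 3.33 (SD, n = 2), against 1.36% ± 0.578 with DMSO and 0.860% ± 0.264 with E6R. Both TSA libraries were above all others, and the intervals of DMSO and E6R overlapped.

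TCN2 was detected in 9.45% of TSA cells of replicate 1 (175 of 1852, 8.16 to 10.9) and 6.96% of replicate 2 (194 of 2789, 6.04 to 7.96). It was found in 1 of 1187 and 3 of 1682 DMSO cells and in 3 of 2199 and 4 of 2228 E6R cells. Group means were 8.20% ± 1.76 with TSA, 0.131% ± 0.0665 with DMSO and 0.158% ± 0.0305 with E6R (SD, n = 2 each). For both genes no DMSO or E6R library came near a TSA library, and replicate 1 of TSA was above replicate 2. No cell type that should lack these genes was present to set a background share. Barcodes with under 300 genes, too small to count as cells, held DHRS2 at 463 and 323 UMIs per 1000000 in the TSA libraries, 76.7% and 69.5% of its level in cells, and TCN2 at 78.5 and 65.3, which was 86.3% and 79.0%. The part of such RNA in the shares of TSA cells was not tested.

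**Figure D1:**
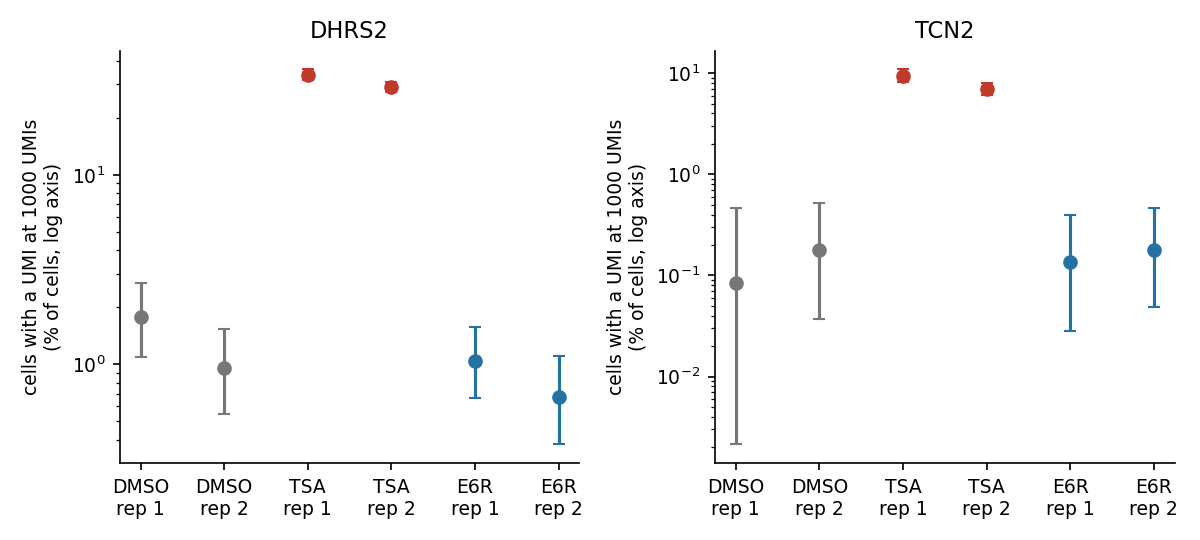
Share of cells with at least 1 UMI of DHRS2 (left) or TCN2 (right) after drawing 1000 UMIs per cell, in percent on a log axis, for each of the 6 libraries; bars are exact 95% intervals over cells. The TSA libraries lie at 33.7% and 29.04% for DHRS2 and 9.45% and 6.96% for TCN2, and all others at or below 1.77%.

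These shares depended on depth. Without thinning, 51.1% and 49.0% of TSA cells had a DHRS2 UMI and 24.2% and 18.3% a TCN2 UMI, at median depths of 1728 and 1876 UMIs. The expected DHRS2 share rose from 20.5% and 17.6% at 500 UMIs to 45.2% and 47.9% at 2000 and to 58.2% and 67.0% at 4000, over the cells deep enough for each draw. For TCN2 it rose from 4.59% and 3.63% at 500 UMIs to 25.5% and 24.3% at 4000. No plateau was reached for either gene, so a TSA cell without a UMI at 1000 UMIs is not shown to lack the transcript. With DMSO the DHRS2 share at 4000 UMIs was 5.61% and 1.17%, and with E6R it was 4.88% and 2.31%.

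**Figure D2:**
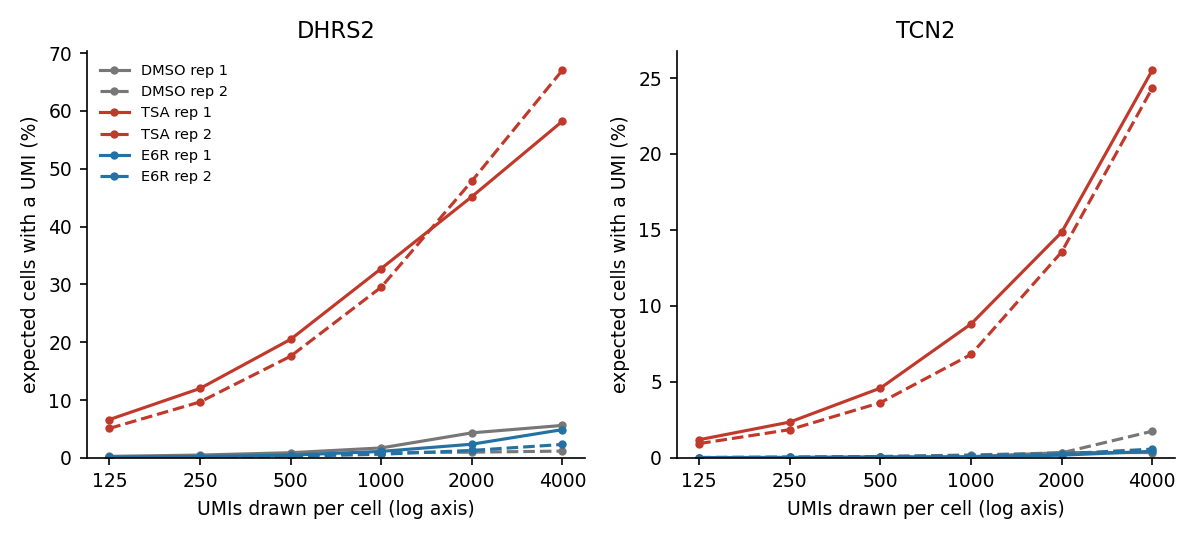
Expected share of cells with at least 1 UMI of DHRS2 (left) or TCN2 (right), in percent, against the number of UMIs drawn per cell (log axis), for the cells that hold that many UMIs; solid lines are replicate 1 and dashed lines replicate 2. Both TSA curves still rise at 4000 UMIs, to 58.2% and 67.0% for DHRS2 and 25.5% and 24.3% for TCN2.

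The UMIs of DHRS2 were spread unevenly over TSA cells. At 1000 UMIs the variance over the mean was 2.39 and 1.66, where an even (Poisson) spread gives 1, and 66.3% and 71.0% of cells had no UMI against 55.4% and 64.8% in a Poisson spread of the same mean. At the other end 12.5% and 8.82% of cells had 2 or more DHRS2 UMIs, and the highest had 13 and 8. For TCN2, whose mean was lower (0.103 and 0.0757 UMIs per cell against 0.591 and 0.433), the variance over the mean was 1.09 and 1.10 and 90.6% and 93.0% of cells had no UMI against 90.2% and 92.7%. A low mean brings this measure close to 1. Divided by the mean, the excess over 1 was 2.36 for DHRS2 and 0.853 for TCN2 in replicate 1 and 1.52 and 1.39 in replicate 2, so the genes were much alike in replicate 2. Only 12 and 15 TSA cells had 2 or more TCN2 UMIs.

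**Figure D3:**
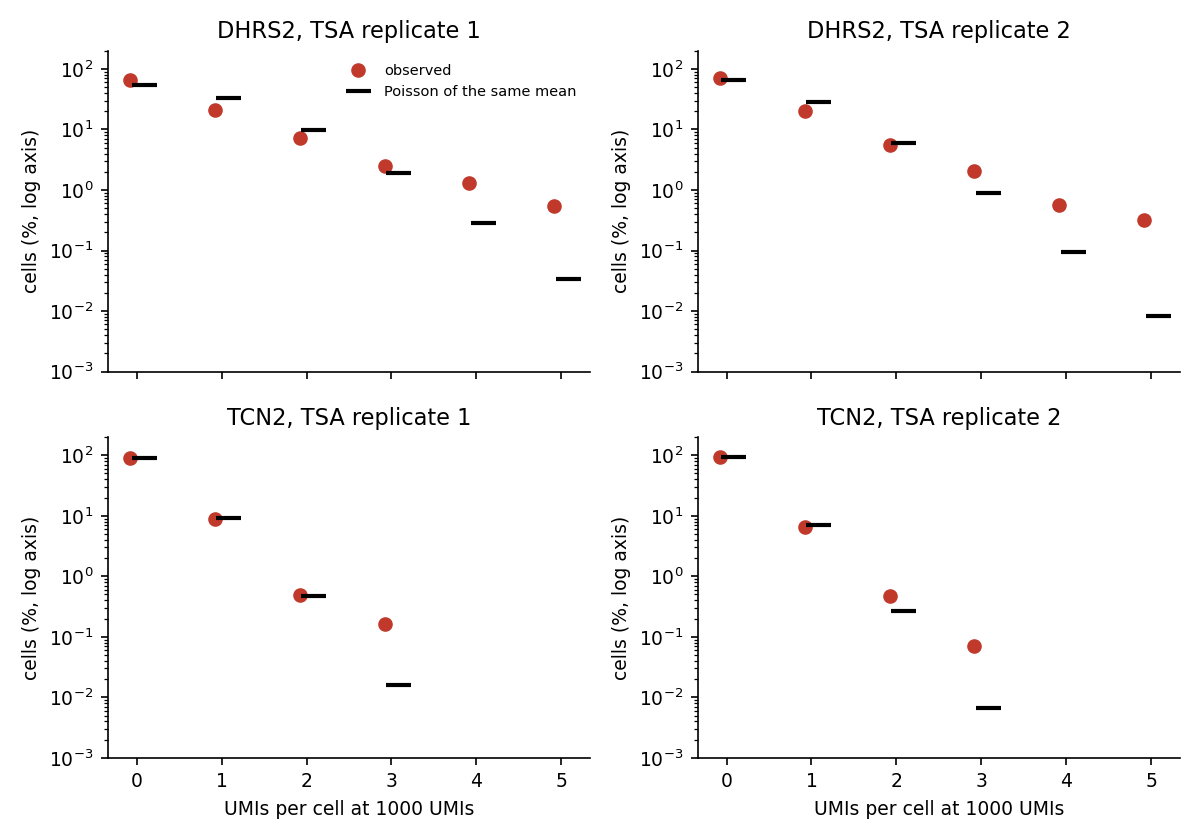
Share of TSA cells (percent, log axis) with 0 to 5 UMIs of DHRS2 (top) or TCN2 (bottom) at 1000 UMIs per cell; points are observed and dashes the Poisson spread of the same mean. For DHRS2 cells with 0 and with 3 or more UMIs exceed the Poisson spread, while for TCN2 cells with 0 to 1 UMI lie close to it.

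Few cells held much of the DHRS2 signal. Of TSA cells with 1000 or more UMIs, the 1% with most DHRS2 (19 and 28 cells) carried 26.7% and 22.5% of all DHRS2 UMIs and 5.77% and 10.4% of all UMIs. The highest cells had 344 DHRS2 UMIs among 76419 in replicate 1 and 210 among 95192 in replicate 2, so they were also among the deepest barcodes. These cells were picked by their DHRS2 counts, which makes the shares a description. Of the 19 cells of replicate 1, 4 had a UMI of the endothelial genes PECAM1 or CDH5 among all their UMIs, as had 1 of the 28 in replicate 2.

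Cells with a PECAM1 or CDH5 UMI at 1000 UMIs were rare with TSA. They numbered 5 of 1852 and 7 of 2789, and 4 of the 5 and 2 of the 7 had a DHRS2 UMI. They were 3.37% and 4.41% of cells in replicate 1 of DMSO and E6R, where DHRS2 was in 2.50% and 1.03% of them, and at most 0.297% in replicate 2. DHRS2 shares in the remaining TSA cells were 33.6% and 29.04%, so leaving these cells out hardly moved them. In DMSO replicate 1, 2 cells stood out with 12 DHRS2 UMIs among 1972 and 10 among 2527, of 84 DHRS2 UMIs in all cells of 1000 or more UMIs. No cell of DMSO replicate 2 had more than 2.

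DHRS2 and TCN2 were found together in 80 TSA cells of replicate 1 (4.32%) and 69 of replicate 2 (2.47%). From the product of the separate shares 59.1 and 56.3 cells were expected, which gives ratios of 1.35 and 1.22. TCN2 was in 12.8% of DHRS2-positive and 7.74% of DHRS2-negative cells of replicate 1, and in 8.52% and 6.32% of replicate 2. Both libraries thus had more cells with both genes than the product gives, but by few cells. These ratios came from 1 random draw. Over all possible draws of 1000 UMIs the ratios were 1.24 and 1.20, and over the alternatives tried they ran from 1.10 to 1.30 in replicate 1 and from 1.01 to 1.28 in replicate 2. Over cells the correlation of log2(UMIs + 1) was 0.0898 and 0.0439, which is weak. Either gene marked 38.9% and 33.5% of TSA cells, against 1.85% and 1.13% of DMSO and 1.18% and 0.853% of E6R cells. No DMSO or E6R cell had both, but at most 0.0314 such cells per library were expected from the product. Co-detection could therefore not be read outside TSA.

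Summed over all UMIs of the same cells, TCN2 was at 126 CPM in DHRS2-positive and 67.6 in DHRS2-negative cells of TSA replicate 1, and at 99.7 and 81.5 in replicate 2. Both libraries were higher in the positive cells, with a log2 difference of 0.61 ± 0.08 (SE) and an edgeR adjusted p of 1.6e-11. In this comparison 2.1% of 13507 genes were called. The call on TCN2 ended when only the thinned UMIs were summed (0.58, edgeR adjusted p = 0.508) and with DESeq2 (0.60, adjusted p = 1.0). The difference was 0.90 in replicate 1 and 0.29 in replicate 2, so the size differed between the libraries. This gap is wider than the SE of 0.08, and the edgeR p does not measure it. The classes also differed in their median share of MT UMIs. It was 4.10% in DHRS2-positive and 6.40% in DHRS2-negative cells of replicate 1, and 9.40% and 10.1% in replicate 2. The part of this in the TCN2 difference was not tested. With the genes exchanged, DHRS2 was at 990 against 537 CPM in TCN2-positive and TCN2-negative cells of replicate 1 and at 559 against 485 in replicate 2. The log2 difference was 0.58 ± 0.07 (edgeR adjusted p = 3.3e-10), beside 0.0885% of 13553 genes called. It was 0.45 with thinned UMIs (edgeR adjusted p = 0.487) and 0.55 with DESeq2 (adjusted p = 1.0), and 0.88 and 0.20 in replicates 1 and 2 alone.

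DHRS2-positive TSA cells were also higher in SERPINE2, a secreted protease inhibitor (95.5 against 20.4 CPM in replicate 1, 36.1 against 21.2 in replicate 2), and in PODXL, a sialomucin of the cell surface (60.5 against 19.0, 40.4 against 19.1). PROCR, the endothelial protein C receptor, was at 101 against 29.6 CPM in replicate 1 and 27.8 against 22.5 in replicate 2, and PTGS1, a prostaglandin synthase, at 70.2 against 24.3 and 14.97 against 10.85. The edgeR log2 differences of these genes were 1.64, 1.41, 1.26 and 1.22 (largest adjusted p 2.0e-15). Without the cells that had a UMI of PECAM1 or CDH5 the differences were 1.42, 1.22, 1.04 and 1.16. All were still called there (largest edgeR adjusted p 1.3e-09). Each difference was larger in replicate 1 than in replicate 2, and the edgeR p does not measure that gap. Values of these genes with thinned UMIs or with DESeq2, where the call on TCN2 ended, are not given. The named falls were smaller, at -0.58 for POC5, -0.45 for EXOSC10, -0.43 for ZNF608 and -0.43 for CCNL1 on the log2 scale.

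TCN2-positive TSA cells had only 12 genes called, 10 higher and 2 lower. Beside DHRS2 the named rises were the RNAs WT1-AS, AC116317.1 and LINC02158, with log2 differences of 2.17, 1.17 and 1.16 (largest edgeR adjusted p 0.00288). WT1-AS was at 67.3 against 7.72 CPM in replicate 2 and 10.3 against 7.01 in replicate 1, so the difference was larger in replicate 2. The named fall was FN1, the gene of fibronectin, by 0.38 (edgeR adjusted p = 0.0136).

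Cell cycle phases were called from genes that include neither DHRS2 nor TCN2. In every library most cells were called G2/M, from 62.4% in DMSO replicate 1 to 86.8% in DMSO replicate 2. G1 calls ran from 5.34% in TSA replicate 2 to 22.2% in DMSO replicate 1, and were 118 of 1682 cells in DMSO replicate 2. Whether these calls match the true phases of the cells was not tested. TSA replicate 1 had 323 cells called G1, 187 S and 1342 G2/M, and replicate 2 had 149, 266 and 2374. DHRS2 was detected in 36.5%, 37.4% and 32.6% of these classes in replicate 1 and in 27.5%, 30.8% and 28.9% in replicate 2. The order of the phases differed between the libraries and the intervals overlapped. TCN2 was in 7.74%, 6.42% and 10.3% of G1, S and G2/M cells in replicate 1 and in 5.37%, 7.14% and 7.03% in replicate 2, again with overlapping intervals. Between 13.6% and 23.1% of cells of a library lay within 0.05 of a phase boundary.

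**Figure D4:**
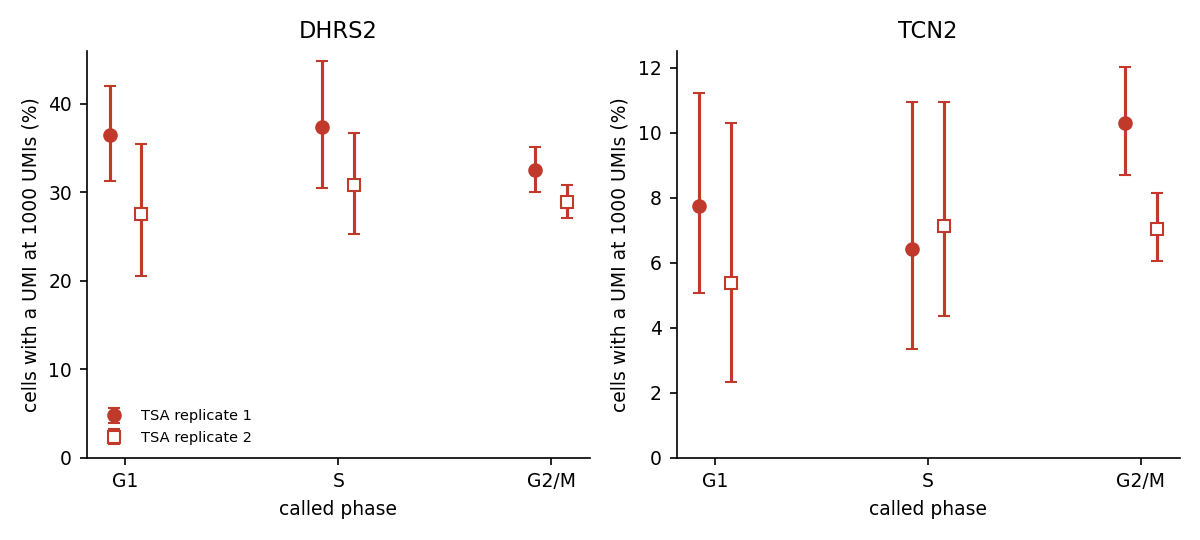
Share of TSA cells with at least 1 UMI of DHRS2 (left) or TCN2 (right) at 1000 UMIs, in percent, by called phase; filled circles are replicate 1, open squares replicate 2, bars exact 95% intervals over cells. DHRS2 lies between 27.5% and 37.4% and TCN2 between 5.37% and 10.3%, and intervals overlap between phases within each library.

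Summed over all UMIs, DHRS2 in TSA cells was at 610, 771 and 643 CPM in G1, S and G2/M of replicate 1 and at 398, 508 and 577 in replicate 2. DHRS2 did not pass the edgeR test between phases: it gave, for G2/M against G1, 0.29 (95% interval 0.05 to 0.53, adjusted p = 0.120), S against G1 0.33 (0.09 to 0.58, adjusted p = 0.156) and G2/M against S -0.04 (-0.27 to 0.19, adjusted p = 0.974). Of 13213 genes, 8.97%, 3.25% and 0.219% were called in these 3 comparisons. DHRS2 passed without TSA replicate 1 (0.57, edgeR adjusted p = 0.0240) and turned to -0.04 without the 5% of cells with most UMIs.

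TCN2 was at 72.0, 98.9 and 105 CPM in G1, S and G2/M of replicate 1 and at 46.3, 101 and 103 in replicate 2, lowest in G1 in both libraries. G2/M exceeded G1 by 0.73 on the log2 scale (95% interval 0.39 to 1.07, edgeR adjusted p = 0.00392). S exceeded G1 by 0.67 (0.27 to 1.06, edgeR adjusted p = 0.0495), and G2/M and S were not told apart (0.06, -0.26 to 0.39, edgeR adjusted p = 0.972). The G2/M call ended without TSA replicate 2 (0.56, edgeR adjusted p = 0.0673), without the 5% of cells with most UMIs (0.54, 0.0586), with thinned UMIs (0.56, 0.416) and between the 25% of cells with the highest and the 25% with the lowest G2/M score (0.47, 0.0984). For scale, other called genes were ranked, leaving out the genes used to call phases. The 4 largest rises from G1 to G2/M in the TSA cells were then ITPRIPL2 (3.31), the mitotic kinesins KIF20A (2.72) and KIF18B (2.71), and ESCO2, a cohesin acetyltransferase (2.64). ITPRIPL2 was near the floor, with 4.06 CPM in G2/M against 0.456 in G1 of replicate 1 and 2.77 against 0 in replicate 2. The 4 largest falls in this ranking were COL3A1, a fibrillar collagen (-2.34), SCG5 (-1.56), VASN (-1.53) and FBN1, the gene of fibrillin (-1.47).

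Outside TSA, DHRS2 was highest in cells called G1. In DMSO it was at 36.9, 8.23 and 20.9 CPM in G1, S and G2/M of replicate 1 (28, 6 and 50 UMIs) and at 24.6, 10.7 and 6.12 in replicate 2 (9, 3 and 19 UMIs). In E6R it was at 15.4, 12.4 and 11.9 CPM in replicate 1 and 12.6, 6.64 and 5.73 in replicate 2. Of the 84 DHRS2 UMIs in DMSO replicate 1, 12 and 10 came from 2 cells, whose called phase is not given. G1 was the highest called phase in all 4 libraries. In the TSA libraries G1 was lowest on this TMM scale, but per 1000000 UMIs without TMM G2/M was lowest in replicate 1 (605, 752 and 581 in G1, S and G2/M) and G1 in replicate 2 (351, 447 and 476). These comparisons were chosen after the values were seen. G2/M against G1 gave -1.14 ± 0.36 (SE) within DMSO (edgeR adjusted p = 0.0569, 5.71% of genes called) and -0.68 ± 0.24 within E6R (edgeR adjusted p = 0.0446, 16.1% called), and the latter call ended without E6R replicate 2 (-0.36, 0.618), without DMSO replicate 1 (0.0505) or 2 (0.0554), without cells with a PECAM1 or CDH5 UMI (0.102) and with thinned UMIs (-0.57, 0.734). Within DMSO the difference was -1.90 without DMSO replicate 1 and -0.79 without DMSO replicate 2 (edgeR adjusted p = 0.209 and 0.361), -0.59 with thinned UMIs (0.718) and -0.82 without the 5% of cells with most UMIs (0.333). It passed with DESeq2 (adjusted p = 0.0157), and in edgeR without cells with a PECAM1 or CDH5 UMI (0.0319) and without any single TSA or E6R library (0.0145 to 0.0269). The difference of this contrast between TSA and DMSO was 1.43 ± 0.38 (edgeR adjusted p = 0.148, 0.0984% called) and between TSA and E6R 0.97 ± 0.26 (edgeR adjusted p = 0.0964, 0.477% called), so neither passed; without TSA replicate 1 both did (1.67, 0.0172 and 1.23, 0.00709), as they did without E6R replicate 1 (1.39, 0.0276 and 1.36, 0.0343), and TSA against DMSO also without E6R replicate 2 (1.43, 0.0195). The TSA and DMSO difference was 0.78 without the 5% of cells with most UMIs (edgeR adjusted p = 0.768), 0.67 with thinned UMIs (0.878), and 2.20 and 1.07 without DMSO replicate 1 or 2 (0.420 and 0.489). That of TSA and E6R was 0.92 (0.206) and 0.65 (0.893) in the first pair of these settings and 0.67 (0.594) without E6R replicate 2. TCN2 had too few UMIs outside TSA for this comparison, with 3 and 8 in all phases of the DMSO libraries.

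DHRS2 was detected less often in TSA cells with a larger share of mitochondrial UMIs. From the lowest to the highest tercile of that share it was 40.5%, 33.5% and 27.2% in replicate 1 and 32.3%, 29.8% and 25.1% in replicate 2. With 1000 UMIs drawn from genes other than MT genes it was 41.3%, 31.1% and 28.2% in replicate 1 (lowest 37.2 to 45.4, highest 24.6 to 32.0) and 34.3%, 31.5% and 30.9% in replicate 2, where the intervals overlapped. TCN2 gave 9.85%, 10.7% and 8.83% in replicate 1 and 7.43%, 7.08% and 6.96% in replicate 2 by the same count, with overlapping intervals. By terciles of total UMIs the thinned DHRS2 share was 35.7%, 32.7% and 32.8% in replicate 1 and 26.9%, 27.8% and 32.5% in replicate 2, with no order common to both. The part of RNA quality in these shares was not tested.

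E6R and DMSO were both among the low groups by which the genes were chosen, so the values of these groups are a description, with no test. The log2 difference of E6R minus DMSO in the library fit was -0.49 ± 0.47 (SE) for DHRS2 and -0.10 ± 0.48 for TCN2. Among all 16763 genes 0% were called in edgeR, where 2913 had an unadjusted p under 0.05, and DESeq2 called 338. Without DMSO replicate 1, which held the 2 cells of 12 and 10 UMIs, the DHRS2 difference was 0.52. The sign of the TCN2 difference also turned under several alternatives, so no direction is given for either gene. Per UMI, DHRS2 with E6R was 0.615 times its DMSO level (0.503 to 0.757 by counting error alone) and TCN2 0.874 times (0.470 to 1.75), while the spread between the DMSO libraries was larger than either difference.

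Few relatives of DHRS2 were higher with TSA, and more were lower. Of 17 listed genes (other DHRS genes and the carbonyl reductases), 14 passed the low-count filter, and with TSA 1 was higher and 5 were lower than with DMSO, beside 16.2% higher and 13.5% lower among all 16763 genes (2720 and 2255, or 1717 and 3361 with total counts as the only scaling). The list's median log2 difference was -0.96, against -0.01 over all genes tested. CBR3, a carbonyl reductase, was at 4.31 CPM with DMSO and 0.288 with TSA and fell by 3.87 on the log2 scale (edgeR adjusted p = 0.00261). DHRSX, an enzyme of dolichol synthesis, fell by 2.63 (edgeR adjusted p = 0.00164), DHRS4L2 fell by 2.20 (0.00492) and DHRS7 fell by 1.81 (0.00239). DHRS4, the nearest relative, was at 7.28 ± 1.88 CPM with DMSO and 2.77 ± 0.709 with TSA (SD, n = 2) and fell by 1.39 (edgeR adjusted p = 0.0460), a call lost without any single DMSO or TSA library (0.0804 to 0.267). DHRS4 and DHRS4L2 are near copies, so counts may be split between them. The one rise, CBR4, a reductase of mitochondrial fatty acid synthesis, was 1.01 (edgeR adjusted p = 0.0164) and was lost without DMSO replicate 1 or 2 or TSA replicate 1 (0.0866, 0.0646 and 0.118) and with total counts as the only scaling (0.71, 0.0662), which moved the median of all genes to -0.32.

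Other genes of vitamin B12 handling mostly did not pass. Of 17 listed, 14 passed the filter, and 1 was higher and 1 lower with TSA, with a median log2 difference of 0.01. Among all genes 16.2% were higher and 13.5% lower, and counts of 1 among 14 genes are too small to be set apart from these shares. MTRR, which reactivates methionine synthase, was higher by 1.01 (edgeR adjusted p = 0.0205) and ABCD4, a lysosomal B12 exporter, fell by 0.91 (edgeR adjusted p = 0.0405). Leaving out any DMSO or TSA library ended both calls (MTRR 0.0698 to 0.132, ABCD4 0.114 to 0.204), and with total counts only MTRR was 0.70 (0.0783). CD320, the receptor of transcobalamin, was at 342 ± 2.64 CPM with DMSO and 261 ± 59.7 with TSA (SD, n = 2), which did not pass (-0.39, edgeR adjusted p = 0.283). TCN1 and CBLIF, the other B12 carrier proteins, did not pass the low-count filter.

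Of 20 protein-coding genes that start within 250 kb of DHRS2 or TCN2, 19 were in the files and 15 passed the filter. With TSA 1 was higher and 1 lower, beside 16.2% and 13.5% of all genes, and the median log2 difference was -0.12. These counts too are too small to be set apart from the shares of all genes. GAL3ST1, a sulfotransferase of myelin lipids that starts 32.25 kb from TCN2, had 50 UMIs with TSA and none with DMSO, which makes it at least 5.43-fold higher against a floor of 3 UMIs over the DMSO group. Its call (edgeR adjusted p = 0.0326) ended without any DMSO or TSA library (0.105 to 0.130). MTFP1, a mitochondrial fission protein 181.3 kb from TCN2, fell by 1.54 (edgeR adjusted p = 0.00312). PES1, which overlaps the start of TCN2, was at 79.9 CPM with DMSO and 73.7 with TSA (-0.12, edgeR adjusted p = 0.688). Between E6R and DMSO no gene of these 3 lists passed in edgeR, whereas DESeq2 called the neighbouring gene DUSP18 (-0.95, adjusted p = 0.0439), and edgeR with no low-count filter called the B12 genes MMUT (1.01, adjusted p = 0.0402) and AMN (-2.54, adjusted p = 0.0429).

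**Figure D5:**
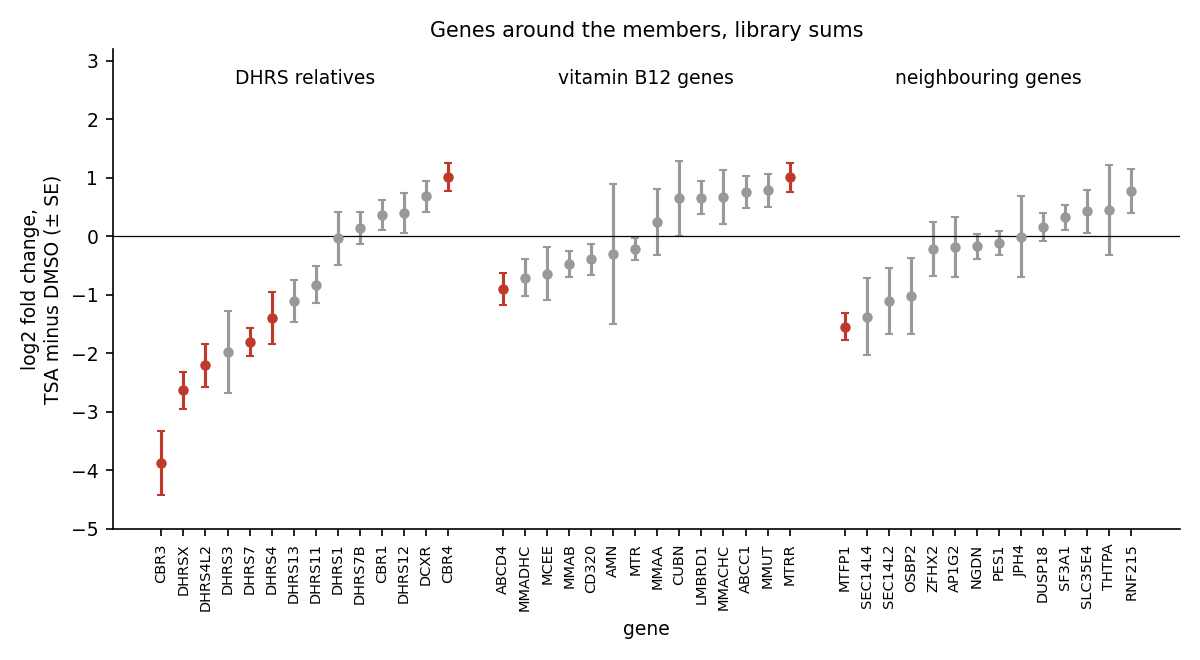
Log2 fold change of TSA minus DMSO (points, ± SE) from the edgeR fit of library sums, for tested genes of 3 lists: relatives of DHRS2, genes of vitamin B12 handling, and genes near DHRS2 or TCN2 (GAL3ST1, with 0 UMIs in DMSO, is not drawn). Red points have an adjusted p under 0.05; most of the called relatives of DHRS2 lie below 0, with CBR3 lowest at -3.87.

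Across the 6 libraries the genes most like DHRS2 by Pearson correlation of log2 CPM were PGS1 (r = 0.9996), OSER1, ANKZF1 and WDR19 (0.997 each), among 7514 genes compared. Those most like TCN2 were CDC14B (0.999), SYAP1 (0.999), STAU1 (0.999) and CLBA1 (0.998). These genes share the 6 libraries and mainly the step between TSA and the rest. The correlation does not measure the size of that step: PGS1 was at 19.8 CPM with DMSO, 29.6 with TSA and 19.1 with E6R. Many genes were alike by this measure, with 449 above r = 0.95 for DHRS2 and 537 for TCN2. WDR19, a component of cilia transport, was at 11.9 CPM with DMSO, 63.7 with TSA and 11.4 with E6R, and CLBA1 was at 11.2, 112 and 9.90. DHRS2 and TCN2 correlated at 0.947 with each other, which placed TCN2 at rank 488 in the order for DHRS2.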

How the data were processed

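The 6 libraries of single SK-N-BE(2)-C cells, 2 per treatment, were analysed from the deposited matrices of whole-number UMI counts per gene and barcode, which the authors had not normalized. Per the submitters' processing notes the reads were processed with STARsolo 2.7.9a and GRCh38. These notes name no annotation, strand setting or rule for keeping barcodes. Each matrix held 36601 genes and 15009 to 15123 barcodes.

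Samples were grouped by the treatment label. Cells were thinned to 1000 UMIs by 1 random draw without replacement, and shares carry exact Clopper-Pearson 95% intervals over cells, which cover counting error only. Because cells are not replicates, counts were added up per library, per called phase or per detection class and tested with edgeR 4.0.16 (quasi-likelihood test, TMM, filterByExpr, Benjamini-Hochberg over all genes, threshold 0.05; R 4.3.3). Phase and detection fits had the library as a block. Scripts were tested on simulated data. Phases were called with scanpy 1.11.5 from 43 S and 54 G2/M genes. Doublets were not called, and fits without the deepest 5% of cells were tried. DESeq2 1.42.0 was an alternative. With 2 libraries against 2, an exact two-sided permutation test of one value cannot go below p = 0.333. Nothing says that the libraries came from separate cultures, so p-values measure at most the spread between these libraries. In the detection fits the spread was estimated from few sums with help from all genes. Small p-values there rest on UMI counts summed over cells and do not measure how far the TSA libraries differed. Libraries of one treatment differed beyond sampling noise (chi-square per degree of freedom 17.2, 39.3 and 76.3 for DMSO, TSA and E6R).

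The 2 genes and the gene lists were chosen with earlier results of these data known. Named genes were DHRS2, TCN2, DHRS4 and CD320, up to 3 rises and 3 falls of each list among those called, the 4 genes most correlated with each member, and the 4 largest rises and falls in the phase and detection fits among called genes averaging at least 20 CPM with one direction in both TSA libraries. That ranking left out the genes used to call phases, and the average was over all sums of the fit. Sequences came from RefSeq (GRCh38.p14), where 1 of the 2 genes was matched, and coordinates from GENCODE 29, which held 34616 of the gene identifiers (94.6%). Alternatives that leave out cells with a PECAM1 or CDH5 UMI, draw UMIs from genes other than MT genes, or count co-detection over all draws were added after seeing the data, as were total-count scaling for the phase and detection fits and the phase comparisons within DMSO and E6R.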

Additional observations from a re-analysis of the deposited data

Results flagged for a closer look

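DHRS2 and TCN2 also appeared in barcodes with under 300 genes, which the comparisons of cells did not use, at levels above those of the same barcodes with DMSO. DHRS2 was at 463 and 323 UMIs per 1000000 in the TSA libraries, against 18.2 and 12.1 with DMSO and 12.5 and 7.25 with E6R. TCN2 was at 78.5 and 65.3 with TSA, against 5.01 and 4.53 with DMSO and 5.35 and 7.80 with E6R. With TSA both genes were lower per UMI in these small barcodes than in cells. With DMSO and E6R TCN2 was higher there than in cells, where it was at 0.713 and 2.09 with DMSO and 0.951 and 1.45 with E6R, on 8 to 14 UMIs per library. The cause was not tested.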

How the results depend on the processing

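The TSA share of DHRS2 followed the depth drawn, at 19.1% for 500 UMIs and 47.1% for 2000, and that of TCN2 was 4.18% and 13.2%; the other alternatives moved both by less than the spread between libraries, and leaving out 1 TSA library gave 29.04% to 33.7% and 6.96% to 9.45%. The co-detection ratio, 1.29 as the mean of both libraries, was 1.10 at 500 UMIs, 1.13 at 2000, 1.12 with at least 300 genes, 1.15 with at most 10% MT UMIs and 1.15 with another seed, and 1.22 to 1.35 with 1 TSA library left out. For E6R against DMSO the TCN2 difference turned to 0.067 with no low-count filter, 0.19 with thinned cells and 0.055 without cells with a PECAM1 or CDH5 UMI; with 1 library left out it ran from -0.52 to 0.96, and that of DHRS2 from -0.998 to 0.52. The cause was not tested.

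Genes called for E6R against DMSO numbered 0 in edgeR, 338 with DESeq2, 1095 with no low-count filter, 1 with all deposited barcodes, 1 without cells with a PECAM1 or CDH5 UMI, and 0 to 3 with 1 library left out. For TSA against DMSO 4975 genes were called, and 1416 to 6028 with 1 library left out; total counts alone moved the split from 2720 higher and 2255 lower to 1717 and 3361. Of the lists, relatives of DHRS2 had 3 to 8 calls with 1 library left out, vitamin B12 genes 0 to 4 and neighbouring genes 1 to 2, against 6, 2 and 2. With thinned cells the vitamin B12 genes had 0 calls and the neighbours 1, and without the 5% of cells with most UMIs the neighbours had 1; fewer genes passed the filter there.

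Replicate numbers were shared between treatments. Deviations of same-numbered libraries correlated at 0.05 for DMSO and TSA, 0.45 for DMSO and E6R and 0.25 for TSA and E6R. Same-numbered libraries of DMSO and E6R thus shared part of their deviations, but the main fits did not include the replicate number. With the replicate block 19 genes were called for E6R against DMSO, against 0 without it. For TSA against DMSO it called 6047 genes, against 4975 without it, and 4 vitamin B12 genes.

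For G2/M against G1 with TSA, DHRS2 was 0.40 with no low-count filter (edgeR adjusted p = 0.00515), -0.043 without the 5% of cells with most UMIs, and 0.10 to 0.57 with 1 TSA library left out. TCN2 missed the threshold at 0.47 between the cells with the highest and lowest 25% of G2/M scores, 0.56 with thinned UMIs and 0.54 without the deepest 5%, and was 0.56 to 1.19 with 1 TSA library left out. In the detection classes thinned UMIs gave 0.58 for TCN2 and 0.45 for DHRS2, and DESeq2 0.60 and 0.55, none past the threshold; 1 library alone gave 0.29 and 0.90 for TCN2 and 0.20 and 0.88 for DHRS2. The few UMIs of TCN2 with DMSO and E6R limit any comparison between those groups.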
